A study of Mus musculus with 93 samples.

Results

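The livers of PWK/PhJ and C57BL/6J male mice that had eaten a control diet (CD) were compared by RNA-seq. The comparison used 14 of the 93 libraries of the study, 6 from PWK/PhJ and 8 from C57BL/6J, chosen by their strain and diet labels, and each library came from 1 mouse. Both groups were housed at 30 °C, which is thermoneutral for mice, from 6 weeks of age, and ate CD for 17 weeks from 7 weeks of age. CD held 10% of its energy as fat, 17% as protein, and 73% as carbohydrate. No transgene or drug set the groups apart, and they differed by strain. The same strains on a Western diet (WD; 40% of energy as fat, 17% as protein, and 43% as carbohydrate), with 7 PWK/PhJ and 8 C57BL/6J mice, served as other mice in which to look at the same genes, and the CD libraries of 5 further strains showed on which side of each difference other mice lay.

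PWK/PhJ is a wild-derived inbred strain of the subspecies Mus musculus musculus. C57BL/6J is a classical inbred strain of largely Mus musculus domesticus origin, and it is the strain whose genome is the mouse reference. The liver makes most plasma proteins, handles cholesterol, fatty acids, glucose, and amino acids, and clears hormones and foreign compounds with cytochrome P450 enzymes and conjugating enzymes. Many of these enzymes belong to clusters of duplicated genes that differ in copy number between mice, and many follow the sex-specific rhythm of growth hormone release. Because the reads of both strains were mapped to the C57BL/6J genome, a PWK/PhJ read could fail to map, or could map to a related copy, where the sequences of the strains differ.

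The 14 libraries were of similar depth, with 47003917 to 49648938 reads on genes and 61024643 to 62473363 reads counted in all. The RNA integrity number was 7 to 9.1. Reads that did not map made up 3.50 ± 0.708% (SD, n = 6) of counted reads in PWK/PhJ and 2.23 ± 0.329% (SD, n = 8) in C57BL/6J, a difference that passed a two-sided exact permutation test adjusted over the 4 classes of uncounted reads (adjusted p = 0.00799). Reads that mapped to several places were 9.815% and 9.139% (adjusted p = 0.0666 in the exact permutation test), and the shares of reads outside genes and of ambiguous reads did not pass the test (adjusted p = 0.807 and 0.715 by exact permutation). One library stood apart. C57BL/6J replicate 2 correlated with its own group at a mean r of 0.954 across genes, against 0.979 to 0.983 for the other C57BL/6J libraries, and 1783 of its genes lay more than 2-fold from the group median, against 152 to 382. It was low in male-predominant liver genes and high in several matrix, bile duct, and cell cycle genes. For several lists and genes, results are given with and without it below.

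The labels were checked with 3 genes. Nnt, the mitochondrial transhydrogenase of which C57BL/6J is known to carry a partial deletion, was 128, 138, and 151 CPM (lowest, median, and highest library) in PWK/PhJ and 58, 66.7, and 80.9 CPM in C57BL/6J. CPM here were computed over the reads on tested genes with TMM scaling. Every PWK/PhJ library was above every C57BL/6J library, and the log2 fold change of PWK/PhJ over C57BL/6J was 1.06 ± 0.0706 (SE; limma-voom adjusted p = 7.12e-24). The Y-linked Ddx3y had 65.3 to 80.3 CPM and 56.8 to 79.7 CPM in the respective strains and did not pass the test (adjusted p = 0.185 by limma-voom). Xist, the RNA of the inactive X chromosome, was 1.54 to 3.34 CPM in PWK/PhJ and 0.0365 to 0.33 CPM in C57BL/6J, so both strains were far below the level of Ddx3y. Of 11 tested hepatocyte markers 6 were higher and 1 lower in PWK/PhJ, and together they summed to 137300 to 166100 CPM in PWK/PhJ and 129200 to 148700 CPM in C57BL/6J.

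Of 19110 genes tested, 11078 (58.0%) were differentially expressed genes (DEGs) between the strains, defined by a Benjamini–Hochberg adjusted p below 0.05 in limma-voom. PWK/PhJ was higher for 5614 (29.4%) and lower for 5464 (28.6%). At least a 2-fold difference was found for 2171 DEGs (11.4%) that were higher and 2563 (13.4%) that were lower. The 6 and 8 libraries did not overlap for 4805 genes (25.1%). Within the 3 PWK/PhJ and 3 C57BL/6J mice of cohort 1 the number of DEGs was 8700, and within the 3 and 5 mice of cohort 2 it was 9160. With so much of the transcriptome called, a list in which a similar share was called is not set apart by that count, and the shares over all genes are the yardstick for the lists below.

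The kind of gene mattered for the direction. Among 14902 protein-coding genes, 4221 (28.3%) were higher in PWK/PhJ and 4484 (30.1%) lower, but among 1462 pseudogenes, which are decayed copies of genes, 708 (48.4%) were higher and 168 (11.5%) lower, so 59.9% were called. At least a 2-fold difference was found for 1096 (7.35%) and 1786 (12.0%) protein-coding genes and for 604 (41.3%) and 144 (9.85%) pseudogenes that were higher and lower. At a difference of at least 16-fold, 228 pseudogenes (15.6%) were higher and 18 (1.23%) lower, against 171 (1.15%) and 148 (0.993%) protein-coding genes.

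A transcript comparison paired 1092 of the pseudogenes with the tested gene that they resemble most, at 90% identity or more over at least 50% of the pseudogene. The following pairs show how alike the copies are in the C57BL/6J reference (GRCm38, GENCODE vM21 transcripts). Each is a stretch of coding sequence of the gene beside the same stretch of the pseudogene, and capitals mark the bases that differ between the copies. The stretch of Rps26 (a protein of the small ribosomal subunit) lies at chr10:128624620-128625309 (minus strand), a span that includes introns. That of its copy Rps26-ps1 lies at chr8:107439234-107439353 (minus strand). Gene and copy differed at 2 of 345 aligned coding bases.
Rps26: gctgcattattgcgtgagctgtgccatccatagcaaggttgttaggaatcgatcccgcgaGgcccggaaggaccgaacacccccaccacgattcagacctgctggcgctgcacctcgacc
Rps26-ps1: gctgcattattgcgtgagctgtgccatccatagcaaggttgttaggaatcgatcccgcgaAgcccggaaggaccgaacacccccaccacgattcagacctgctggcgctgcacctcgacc
The stretch of Scp2, a sterol carrier and peroxisomal thiolase, lies at chr4:108055444-108055563 (minus strand) and that of Scp2-ps2 at chr9:123307689-123307808 (minus strand). Gene and copy had 1 difference in 459 aligned bases.
Scp2: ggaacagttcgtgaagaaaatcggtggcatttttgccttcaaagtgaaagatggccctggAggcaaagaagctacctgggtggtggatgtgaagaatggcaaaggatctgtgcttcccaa
Scp2-ps2: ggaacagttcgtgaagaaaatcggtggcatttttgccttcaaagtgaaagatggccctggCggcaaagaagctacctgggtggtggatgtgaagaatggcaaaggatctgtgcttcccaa
The mitochondrial genome encodes mt-Co1, the core subunit of complex IV, and the stretch shown lies at chrM:6501-6620 (plus strand) in the reference. Gm13340 is a nuclear copy of mt-Co1, and its stretch lies at chr2:22588355-22588474 (minus strand). Gene and copy had 37 differences in 1542 aligned bases.
mt-Co1: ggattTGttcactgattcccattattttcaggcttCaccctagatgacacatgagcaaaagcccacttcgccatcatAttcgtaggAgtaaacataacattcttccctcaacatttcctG
Gm13340: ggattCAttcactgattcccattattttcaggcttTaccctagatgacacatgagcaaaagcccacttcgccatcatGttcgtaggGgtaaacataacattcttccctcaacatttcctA

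At these pairs the gene and its copy differed between the strains in opposite directions. Rps26 was 20.9, 26, and 30.5 CPM in PWK/PhJ and 148, 159, and 194 CPM in C57BL/6J, whereas Rps26-ps1 was 123, 137, and 168 CPM against 1.5, 1.63, and 2.1 CPM. The strains did not overlap at either gene, and they moved in opposite directions, by a log2 fold change of -2.65 ± 0.0635 (SE; limma-voom adjusted p = 1.55e-54) for Rps26 and 6.36 ± 0.112 (adjusted p = 6.97e-65) for Rps26-ps1. When the reads of the copies were added to Rps26, the difference was 0.03 on the log2 scale (adjusted p = 0.667 in limma-voom). Scp2 behaved in the same manner. It was 1840 to 2720 CPM in PWK/PhJ and 1640 to 3860 CPM in C57BL/6J (a log2 difference of -0.43, adjusted p = 6.63e-05), Scp2-ps2 was 432 to 694 CPM against 3.51 to 7.66 CPM, and the sum with its copies differed by -0.11 (limma-voom adjusted p = 0.352).

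Over all pairs, 582 matched pseudogenes were higher in PWK/PhJ, 86 lower, and 424 not called. The 494 that were at least 2-fold higher matched 390 genes, of which 177 were lower, 77 higher, and 136 not called in PWK/PhJ. With the reads of the pseudogenes added, 131 of the 390 were lower, 124 higher, and 135 not called, and their median log2 fold change went from -0.137 to 0.0046. Of the genes that had been lower, 46 were no longer lower, 11 of which were then higher. Pseudogene reads were 2.65% to 3.07% of all reads on genes in PWK/PhJ and 0.132% to 0.153% in C57BL/6J. Among 18018 genes after the addition, 5311 were higher and 5140 lower, so the total number of DEGs changed little. These are descriptions of where reads were counted. The sequences of PWK/PhJ were not used here, so expression of a PWK/PhJ copy cannot be told apart from reads of the parent gene that matched the pseudogene better.

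**Figure D1:**
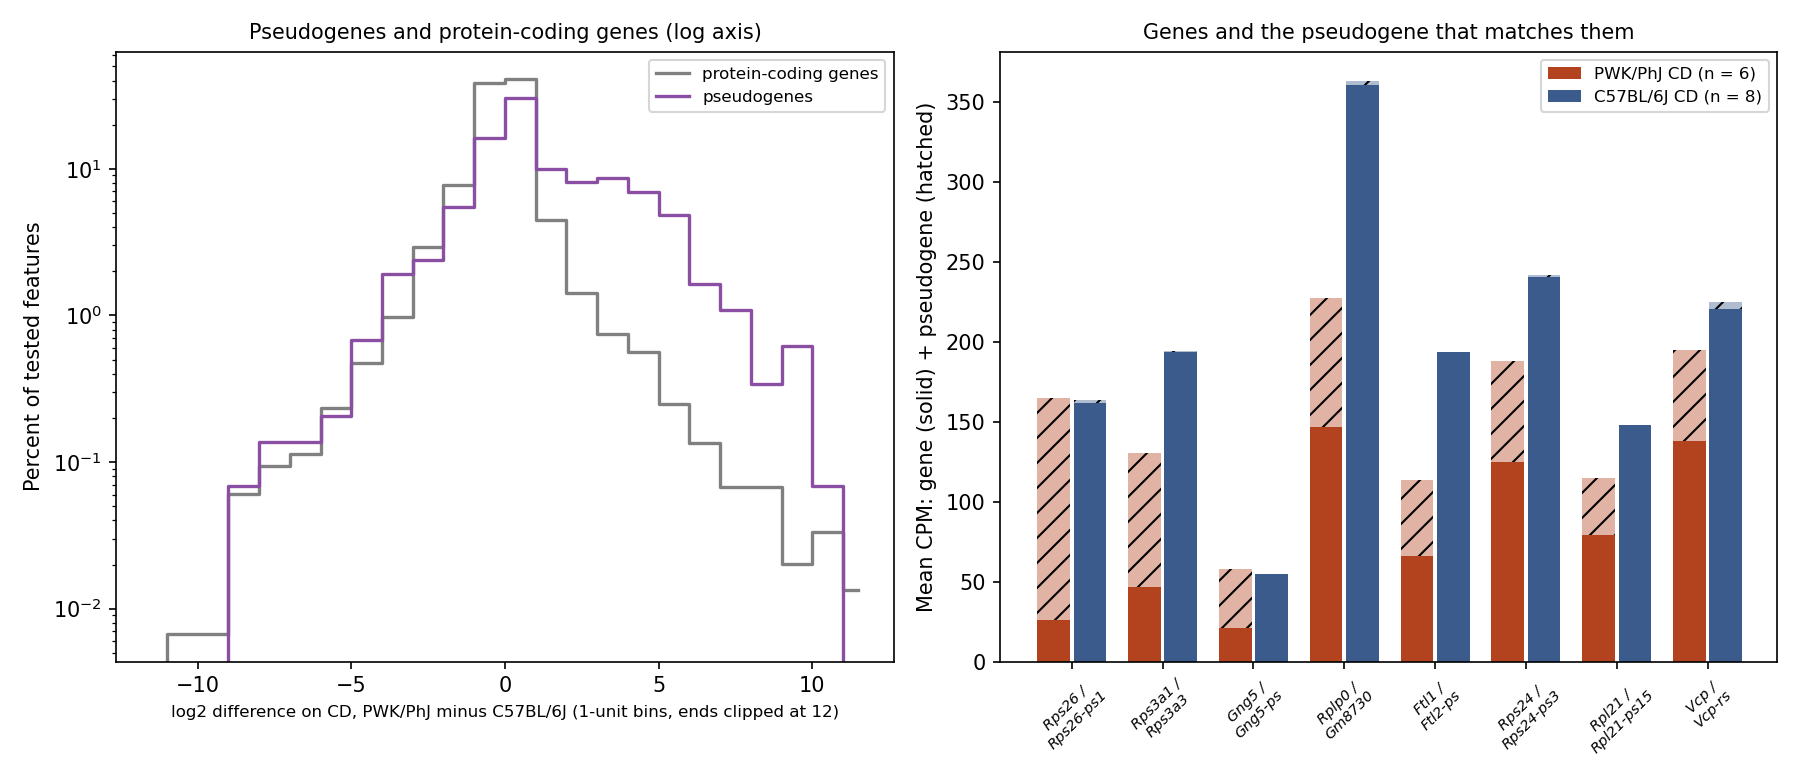
Left, the percent of tested protein-coding genes (grey) and pseudogenes (purple) in each bin of the log2 difference of PWK/PhJ minus C57BL/6J on CD, with a log axis for the percent. Right, mean CPM of 8 genes (solid) stacked with that of a matching pseudogene (hatched) in PWK/PhJ (red, n = 6) and C57BL/6J (blue, n = 8). The pseudogenes have a long arm toward PWK/PhJ, and the hatched portions are larger in PWK/PhJ than in C57BL/6J for all 8 pairs, which were chosen after their values were seen.

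Nuclear copies of mitochondrial genes carried many of these reads. The nuclear copy Gm13340 was 15200 to 17700 CPM in PWK/PhJ and 24.4 to 45.1 CPM in C57BL/6J, and mt-Co1 was 13700 to 14700 CPM against 18100 to 26400 CPM. The strains did not overlap at either. The difference of mt-Co1 was -0.61 on the log2 scale alone (adjusted p = 3.63e-11 in limma-voom) and 0.51 with the copies added (adjusted p = 1.64e-08), so its direction turned. For mt-Nd2, a complex I subunit, the levels were 3720 to 5030 CPM and 8880 to 13700 CPM (log2 fold change -1.37 ± 0.0953 SE, adjusted p = 9.2e-23). Its nuclear copy Gm13339 had a mean of 2980 CPM in PWK/PhJ and 3.82 CPM in C57BL/6J, and with the copy added the difference of mt-Nd2 was -0.62 (adjusted p = 4.74e-08 in limma-voom). The 13 protein genes of the mitochondrial genome summed to 51240 to 60700 CPM in PWK/PhJ and 62450 to 89580 CPM in C57BL/6J. Their 15 matching nuclear copies summed to 21060 to 25440 CPM and 119.1 to 191.7 CPM, and genes and copies together to 72300 to 86000 CPM and 62570 to 89760 CPM. The first of these sums did not overlap between the strains, and the last did. Among the other strains on CD, CAST/EiJ also had Gm13340 at a mean of 14600 CPM, and the other 4 strains had it at 32.9 to 41.2 CPM. Of the 13 genes, 6 were higher, 3 lower, and 4 not called in PWK/PhJ, so some went the other way. The short mt-Nd3 was 45.2 to 85 CPM in PWK/PhJ and 1.58 to 3.08 CPM in C57BL/6J. Its nuclear copy Gm28438 matches it at 99.71% in the C57BL/6J reference, and copies of mt-Co2, mt-Co3, mt-Atp6, and mt-Nd4l, also higher, match at 100%. The latter genes had means of 16.4, 19.8, 20.6, and 1.39 CPM in C57BL/6J, against 22000 CPM of mt-Co1. A copy of mt-Nd4 also matches at 100%, and mt-Nd4 had 6710 CPM. Reads that map to several places are not counted on genes, so these levels and the sums of the 13 genes can miss reads. How many was not tested.

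The largest increases among well-expressed protein-coding genes included many enzymes that modify steroids and drugs. The first in rank was Sult3a1, a sulfotransferase that is mostly expressed in female liver. It was 82.7, 153, and 588 CPM in PWK/PhJ and 0, 0.0396, and 0.184 CPM in C57BL/6J. All PWK/PhJ libraries were far above all C57BL/6J libraries, with PWK/PhJ replicate 3 the highest, and the log2 fold change was 11.98 ± 0.867 (SE; limma-voom adjusted p = 9.89e-22). Without PWK/PhJ replicate 3 it was 11.62. Its neighbour Sult3a2 followed the same pattern, with 5.43 to 73.1 CPM against 0 to 0.0672 CPM. Sult2a1, a sulfotransferase of bile acids and steroids, was 27 to 97.2 CPM in PWK/PhJ and 0 to 1.85 CPM in C57BL/6J, where replicate 2 held the 1.85 CPM and the others at most 0.0368 CPM. Cyp3a41a, a female-predominant P450, was 25.9 to 204 CPM against 0 to 0.101 CPM. The strains did not overlap at any of these genes.

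Other leading increases came from different pathways. Miox, which opens the ring of inositol, was 51, 57, and 60.5 CPM in PWK/PhJ and 0, 0.0288, and 0.286 CPM in C57BL/6J. The PWK/PhJ libraries were tightly grouped and far from those of C57BL/6J (log2 fold change 10.30 ± 0.38 SE, limma-voom adjusted p = 1.1e-40). Akr1c18, a hydroxysteroid dehydrogenase that inactivates progesterone, was 109 to 133 CPM against 0.0393 to 5.61 CPM. A4gnt, a glycosyltransferase of mucin-type glycans, was 30.4 to 66 CPM against 0 to 0.443 CPM. Myom2, a protein of the muscle sarcomere, had 14.3 to 22.2 CPM in PWK/PhJ, and the 8 C57BL/6J libraries held 3 of its reads in all against 5181, a ratio of 2490 with an exact 95% counting interval of 851 to 12100. Mup17 and Mup18, of the major urinary proteins, were also among the 12 largest increases, as was C1s2, a copy of the complement protease gene C1s.

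**Figure D2:**
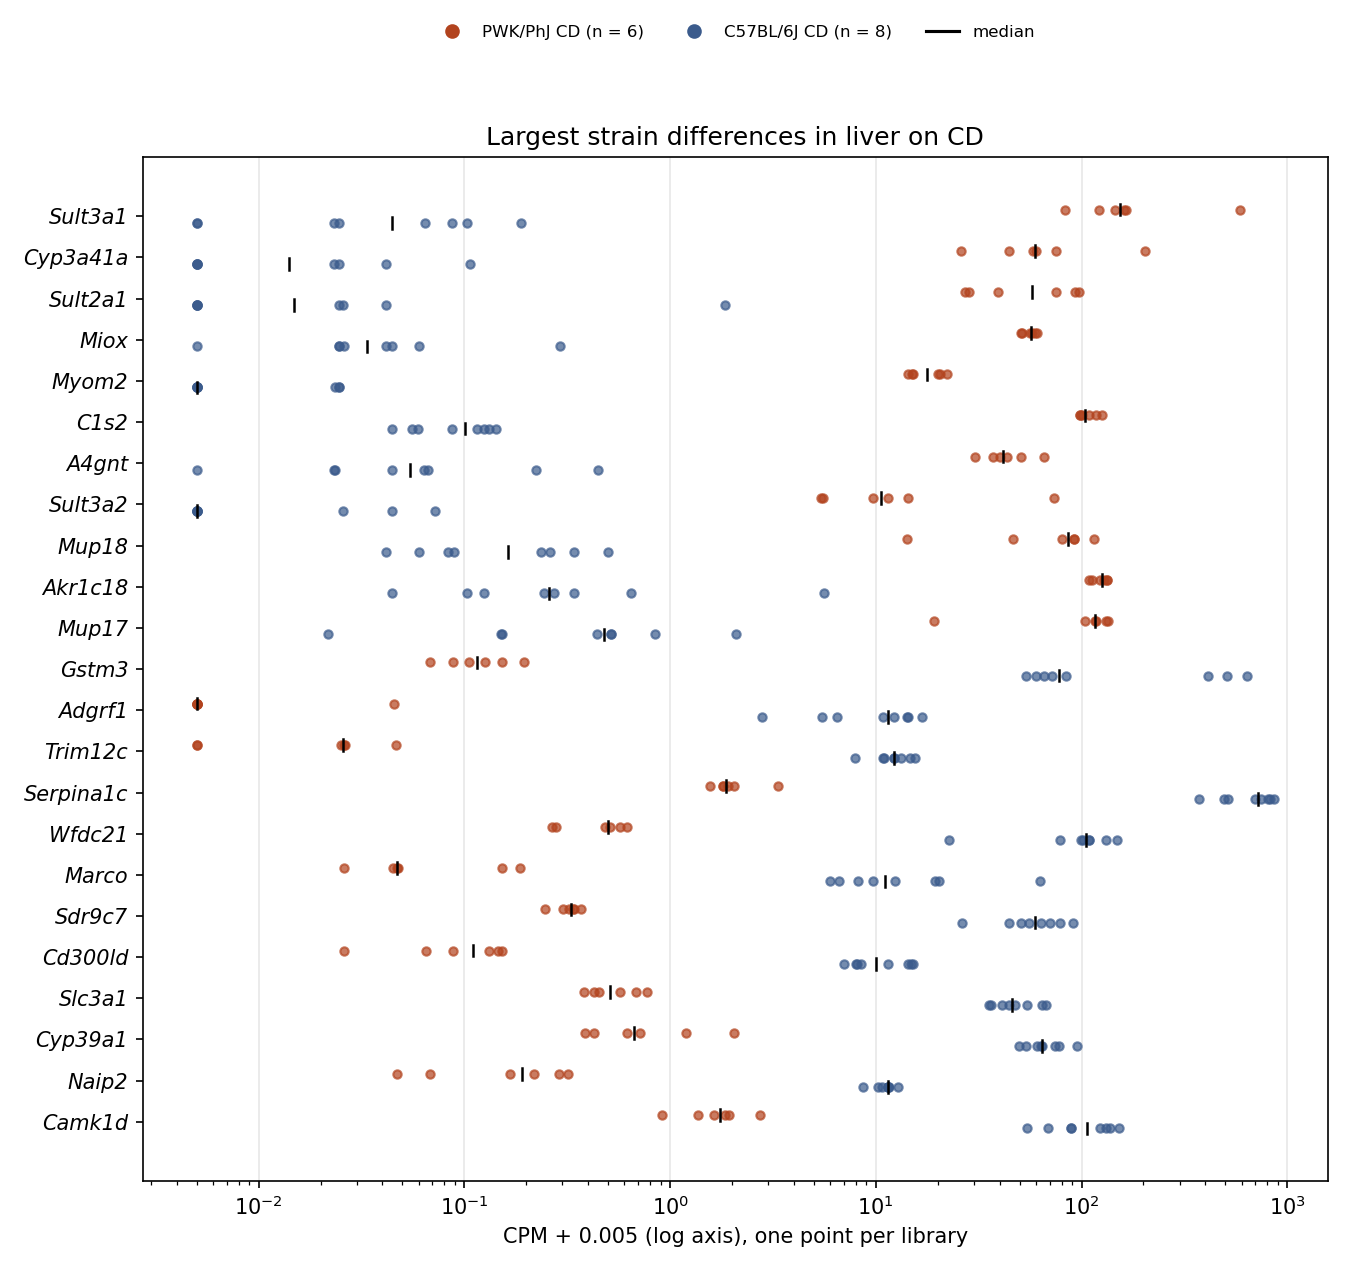
CPM on a log scale of the leading increases and decreases in each CD library of PWK/PhJ (red, n = 6) and C57BL/6J (blue, n = 8), with the median as a black line and zeros drawn at the left. These genes were chosen for having no overlap between the strains, so the separation is a property of the choice.

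The leading decreases included genes of detoxification, protease inhibition, and macrophages. Gstm3, a glutathione transferase, was 0.0634, 0.111, and 0.191 CPM in PWK/PhJ and 53.5, 78.1, and 634 CPM in C57BL/6J. It was nearly absent from PWK/PhJ and varied widely among C57BL/6J libraries (log2 fold change -10.19 ± 1.46 SE, adjusted p = 4.32e-09 in limma-voom). Serpina1c, one of the alpha-1-antitrypsin genes, was 1.55, 1.86, and 3.36 CPM against 373, 719, and 859 CPM. Here the spread within each strain was small beside the gap (log2 fold change -8.31 ± 0.225 SE, adjusted p = 1.77e-50). Wfdc21, which encodes a small secreted acute-phase protein, was 0.262 to 0.614 CPM against 22.8 to 148 CPM. Marco, a scavenger receptor of macrophages, was 0.0209 to 0.181 CPM in PWK/PhJ and 5.97 to 62.5 CPM in C57BL/6J. Cyp39a1, which hydroxylates 24-hydroxycholesterol, was 0.38 to 2.05 CPM against 49.7 to 95.4 CPM. Slc3a1, a subunit of a cystine transporter, was 0.375 to 0.764 CPM against 35.5 to 67 CPM, and it overlaps another gene on the opposite strand, whose reads could not be kept apart because the strand setting of the counting is not known.

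Several of the leading decreases were at or near 0 in PWK/PhJ. The 6 libraries held 2 reads of Adgrf1, an adhesion receptor, against 4189 in the 8 C57BL/6J libraries, so the level in C57BL/6J was 1450 times that in PWK/PhJ with an exact 95% counting interval of 402 to 12000. Trim12c, Sdr9c7, Cd300ld, Naip2, and Camk1d were also among the 12, with the highest PWK/PhJ library at 0.0417, 0.362, 0.148, 0.313, and 2.72 CPM and the lowest C57BL/6J library at 7.91, 26.1, 7.01, 8.65, and 54.1 CPM. For such genes, absent expression, sequence that PWK/PhJ lacks, and reads that did not map to the C57BL/6J copy cannot be told apart here.

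Where duplicated genes were counted as families, the totals often differed less than the members. The 5 Serpina1 genes together were 9671, 12880, and 13900 CPM in PWK/PhJ and 8201, 10950, and 14060 CPM in C57BL/6J, which overlapped widely in spite of the near absence of Serpina1c. C1s1 and C1s2 together were 319.2, 330.7, and 368.6 CPM against 213.8, 322, and 372.7 CPM, although C1s2 alone was 98.2 to 126 CPM against 0.0393 to 0.138 CPM. The total of the Ces1 carboxylesterases had a ratio of PWK/PhJ over C57BL/6J means of 1.08, with Ces1g lower (6.48 to 24.1 CPM against 157 to 264 CPM). Other families differed as a whole. The 7 Gstm genes summed to 769.8, 845, and 970 CPM against 2254, 3073, and 5017 CPM with no overlap, and the most abundant, Gstm1, was 549 to 740 CPM against 1860 to 4170 CPM (log2 fold change -2.11 ± 0.155 SE, limma-voom adjusted p = 2.22e-21). The Orm genes, which encode the acute-phase protein alpha-1-acid glycoprotein, summed to 16.98, 18.97, and 25.12 CPM against 205.7, 370.5, and 473.1 CPM, also with no overlap.

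Sex-dependent liver genes are set by growth hormone, androgens, and repressors, and male mice express the female-predominant ones at a low level. All mice here were male. Of 33 tested female-predominant genes, 17 were higher in PWK/PhJ and 6 lower, with a median log2 fold change of 1.65 against 0.0025 over all genes. Without C57BL/6J replicate 2 the counts were 18 and 6 and the median 2.21, and with edgeR they were 15 and 9 and the median 0.41. Their summed level was 2001, 2655, and 4635 CPM in PWK/PhJ and 339, 430.5, and 1197 CPM in C57BL/6J. The 1197 CPM belonged to C57BL/6J replicate 2, the other C57BL/6J libraries reached 725.7 CPM, and the strains did not overlap in either case. Cyp3a44 was 13.5, 29.5, and 43.8 CPM in PWK/PhJ and 0.0393, 0.207, and 4.79 CPM in C57BL/6J, and Cyp2c40 was 151, 217, and 295 CPM against 0.258, 3.4, and 21.9 CPM. Both are female-predominant P450 genes, and in both the highest C57BL/6J value came from replicate 2.

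The male-predominant genes were mixed. Of 33 tested, 14 were higher in PWK/PhJ and 9 lower, with a median of 0.30 and, without C57BL/6J replicate 2, of 0.0088. Their summed level was 6477, 9822, and 10520 CPM in PWK/PhJ and 2870, 18850, and 25000 CPM in C57BL/6J. The 2870 CPM belonged to C57BL/6J replicate 2, and the other C57BL/6J libraries, at 11870 CPM or more, were above all PWK/PhJ libraries. Much of the C57BL/6J sum came from Mup20 and Mup3, which are in this list and are treated below. Their means were 638 and 76.1 CPM in PWK/PhJ and 5060 and 4900 CPM in C57BL/6J. Whether the sum of the other members differed was not tested. Cyp7b1, which hydroxylates oxysterols and neurosteroids, was 537, 656, and 722 CPM in PWK/PhJ and 9.01, 103, and 133 CPM in C57BL/6J. PWK/PhJ was above in all libraries, with a log2 fold change of 3.23 ± 0.357 (SE; limma-voom adjusted p = 6.34e-13), and of 2.80 without the C57BL/6J replicate at 9.01 CPM. Slco1a1, an organic anion uptake transporter, was 602, 799, and 908 CPM against 7.01, 492, and 632 CPM. The groups overlapped slightly, the difference was 1.59 on the log2 scale (adjusted p = 0.000577 in limma-voom), and it was 0.86 without replicate 2 (adjusted p = 0.00166). The call was lost in limma-voom fits of the 2 strains alone (adjusted p = 0.123), of the 2 strains with cohort as a term (adjusted p = 0.0907), and within cohort 2 (adjusted p = 0.0998), and it held within cohort 1 (adjusted p = 0.0011). Ugt2b38, a glucuronosyltransferase, was 65.4 to 84.7 CPM against 0.134 to 9.59 CPM.

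The major urinary proteins carry pheromones in male urine and are among the most abundant liver transcripts of C57BL/6J males. The 21 tested Mup genes summed to 952.8, 2711, and 3247 CPM in PWK/PhJ and to 262.5, 11520, and 15080 CPM in C57BL/6J. The lowest C57BL/6J value was replicate 2, and the other 7 ranged from 6245 CPM upward, above all PWK/PhJ libraries. By number, 10 members were higher in PWK/PhJ and 3 lower with a median of 0.71 in limma-voom, against 10 and 7 in edgeR and in DESeq2, with medians of 0.011 and -0.0063. Mup20 and Mup3, the most abundant members in C57BL/6J by counted reads, were both lower. Mup20, also called darcin, was 182, 687, and 975 CPM against 209, 5510, and 7150 CPM, a log2 fold change of -2.72 ± 0.378 (SE; adjusted p = 1.68e-09 in limma-voom). Mup3 was 40.8, 82.8, and 96.6 CPM against 49.7, 5180, and 8550 CPM, and again only replicate 2 of C57BL/6J overlapped PWK/PhJ. Mup18, at 14.2 to 115 CPM against 0.0365 to 0.495 CPM, and Mup17, at 19.2 to 135 CPM against 0.0168 to 2.08 CPM, were higher. The Mup genes are nearly identical to each other, so the assignment of reads to single members is uncertain. Reads that map to several places are not counted on genes, so the family sums and the ranking of members hold for counted reads only. How many Mup reads were left out in each strain was not tested.

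**Figure D3:**
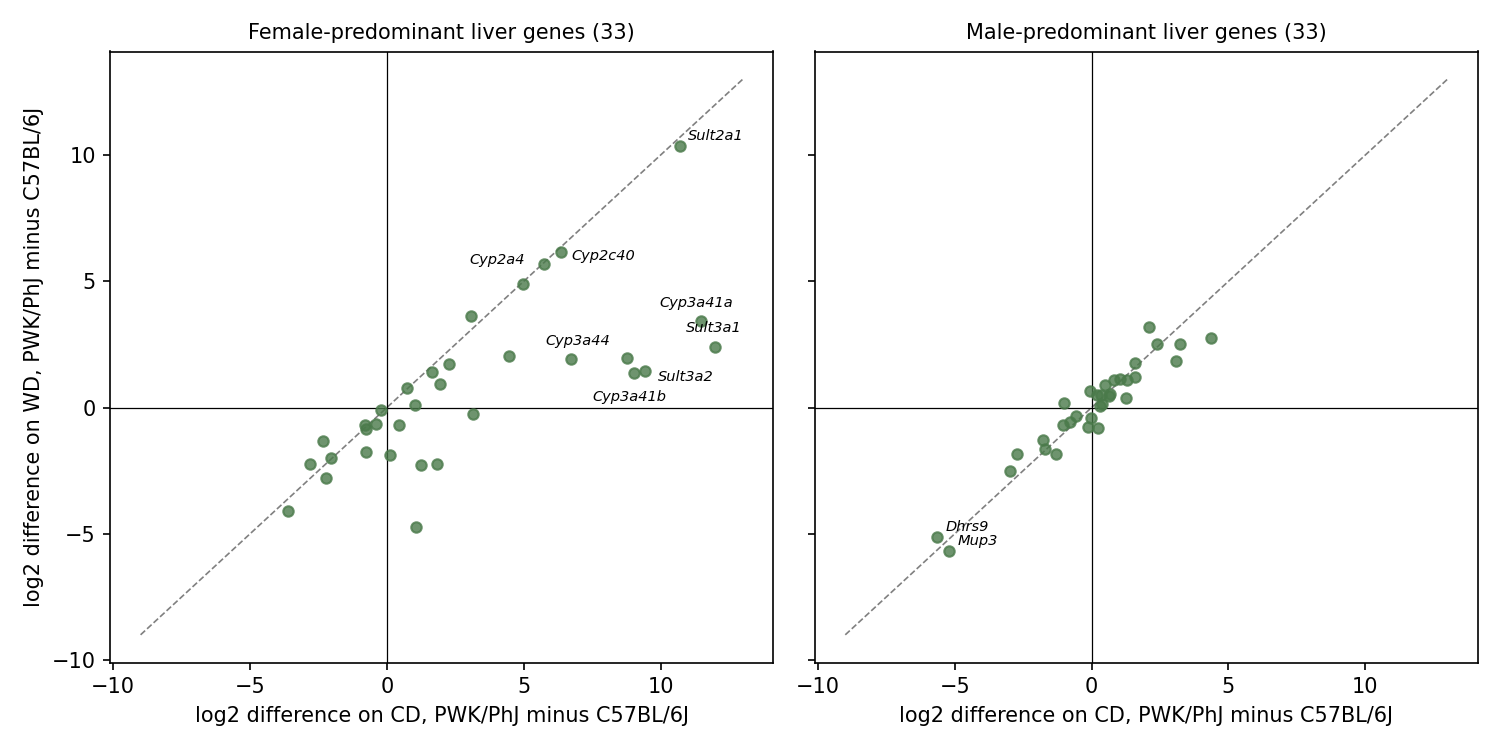
Log2 differences of PWK/PhJ minus C57BL/6J on CD (horizontal) and on WD (vertical) for 33 female-predominant and 33 male-predominant liver genes, with the line of equality dashed. Sult3a1, Cyp3a41a, and Cyp3a44 lie far to the right and between 1.92 and 3.41 on the WD axis, whereas Sult2a1 and Cyp2c40 lie close to the line.

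Of 63 tested P450 genes of families 1 to 4, 31 were higher and 20 lower in PWK/PhJ, with 24 and 15 of these differing at least 2-fold. The summed level was 22300 to 28480 CPM in PWK/PhJ and 11580 to 21210 CPM in C57BL/6J, without overlap. The 13 Cyp2c genes summed to 1.58 times the C57BL/6J level and the 9 Cyp3a genes to 1.47 times, whereas the 7 Cyp4a genes, which hydroxylate fatty acids, summed to 0.381 times. The Cyp2c sums did not overlap, at 3877 to 4405 CPM in PWK/PhJ and 1665 to 3268 CPM in C57BL/6J. Those of Cyp3a (4195 to 7390 CPM against 2632 to 6256 CPM) and Cyp4a (391.7 to 1223 CPM against 648.2 to 3426 CPM) did. The 53 conjugation enzymes had 24 higher and 17 lower members, and 20 and 18 in edgeR and in DESeq2. Their summed level was 9036 to 10180 CPM in PWK/PhJ and 9561 to 13860 CPM in C57BL/6J, where replicate 2 was the lowest and the others, from 12180 CPM, were above all PWK/PhJ libraries. The NRF2 antioxidant list had 7 higher and 17 lower of 32, and in it Cbr3, a carbonyl reductase, was 0.25 to 0.423 CPM against 0.57 to 9.18 CPM.

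Cholesterol synthesis genes leaned toward PWK/PhJ. Of 20 tested, 9 were higher and 0 lower in limma-voom (1 lower at an unadjusted p below 0.05, and 0 lower in edgeR and in DESeq2), with a median of 0.29 on the log2 scale. With upper-quartile scaling, 8 were higher and 1 lower. Acat2, which condenses acetyl-CoA, was 103, 120, and 220 CPM in PWK/PhJ and 42, 57.9, and 77.1 CPM in C57BL/6J, without overlap (log2 fold change 1.17 ± 0.14 SE, adjusted p = 1.37e-11). Mvd, which makes isopentenyl diphosphate, was 19.9, 43.9, and 123 CPM against 10.5, 21, and 33.6 CPM, and Fdps, which joins these units to farnesyl diphosphate, was 9.34 to 37 CPM against 5.03 to 11.9 CPM. Both of these overlapped between the strains, and PWK/PhJ replicate 3 was highest for Mvd and Acat2. Tm7sf2, a sterol reductase, was 138 to 199 CPM against 42.9 to 155 CPM.

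Bile acid genes were split, with 9 of 25 higher and 10 lower and a median of -0.05. Without C57BL/6J replicate 2 the counts were 8 and 12 and the median -0.17. In that list Cyp7b1, of the alternative synthesis route, was higher and Cyp39a1 lower, as given above. Abcc4, a basolateral efflux pump, was 0.803, 1.43, and 2.6 CPM in PWK/PhJ and 2.74, 4.47, and 17.1 CPM in C57BL/6J, with no overlap and with replicate 2 again the highest of C57BL/6J.

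Fatty acid synthesis genes had 10 of 21 higher and 2 lower with a median of 0.40, but their members did not move as one. Without C57BL/6J replicate 2 the counts were 8 and 2 and the median 0.30. Pnpla3, a lipid droplet lipase whose human variant is tied to fatty liver, was 50.2, 73.5, and 221 CPM in PWK/PhJ and 5, 11.5, and 21.8 CPM in C57BL/6J. All PWK/PhJ libraries were higher (log2 fold change 3.16 ± 0.398 SE, limma-voom adjusted p = 7.26e-11). Thrsp, a lipogenic regulator, was 198 to 671 CPM against 29.8 to 347 CPM, and Acly, which supplies cytosolic acetyl-CoA, was 455 to 2240 CPM against 341 to 786 CPM. Acaca, which makes malonyl-CoA and is the committed step, went the other way, with 49.1, 77.1, and 141 CPM against 128, 180, and 231 CPM (log2 fold change -1.14 ± 0.226 SE, adjusted p = 9.65e-06). The summed level of the list overlapped, at 18330 to 42680 CPM and 8470 to 37730 CPM. The 8470 CPM belonged to C57BL/6J replicate 2, and the other C57BL/6J libraries had 17220 CPM or more.

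Pparg, the nuclear receptor that drives lipid storage, was 0.261, 0.388, and 0.463 CPM in PWK/PhJ and 5.46, 10.5, and 16.4 CPM in C57BL/6J. The strains were far apart, by -4.71 ± 0.608 on the log2 scale (SE; limma-voom adjusted p = 1.71e-10). The lipid droplet and Pparg target list had 7 higher and 6 lower of 24, and 6 and 10 without C57BL/6J replicate 2. Its members Fitm1, which partitions fat into droplets, Cidec, which enlarges them, and Lpl, the lipoprotein lipase, were 0.0805 to 0.253, 2.19 to 5.4, and 7.39 to 12.8 CPM in PWK/PhJ. In C57BL/6J they were 1.63 to 10.9, 6.03 to 68.8, and 23.9 to 440 CPM, so none overlapped. The 440 CPM of Lpl came from replicate 2, without which the highest was 101 CPM.

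Genes of fatty acid oxidation and ketogenesis had 8 higher and 8 lower of 31, and 7 and 11 without C57BL/6J replicate 2. Pdk4, which shuts pyruvate out of the mitochondrion in fasting, was 2.38, 4.04, and 6.82 CPM in PWK/PhJ and 11.7, 38.4, and 81.6 CPM in C57BL/6J. Acot2, a mitochondrial thioesterase, was 3.56 to 9.04 CPM against 9.44 to 44.8 CPM. In neither did the strains overlap. Apolipoproteins and lipoprotein handling had 9 higher and 1 lower of 26, with Apoa4 at 197 to 674 CPM against 89.6 to 515 CPM (log2 fold change 1.05 ± 0.358 SE, adjusted p = 0.0089 in limma-voom).

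**Figure D4:**
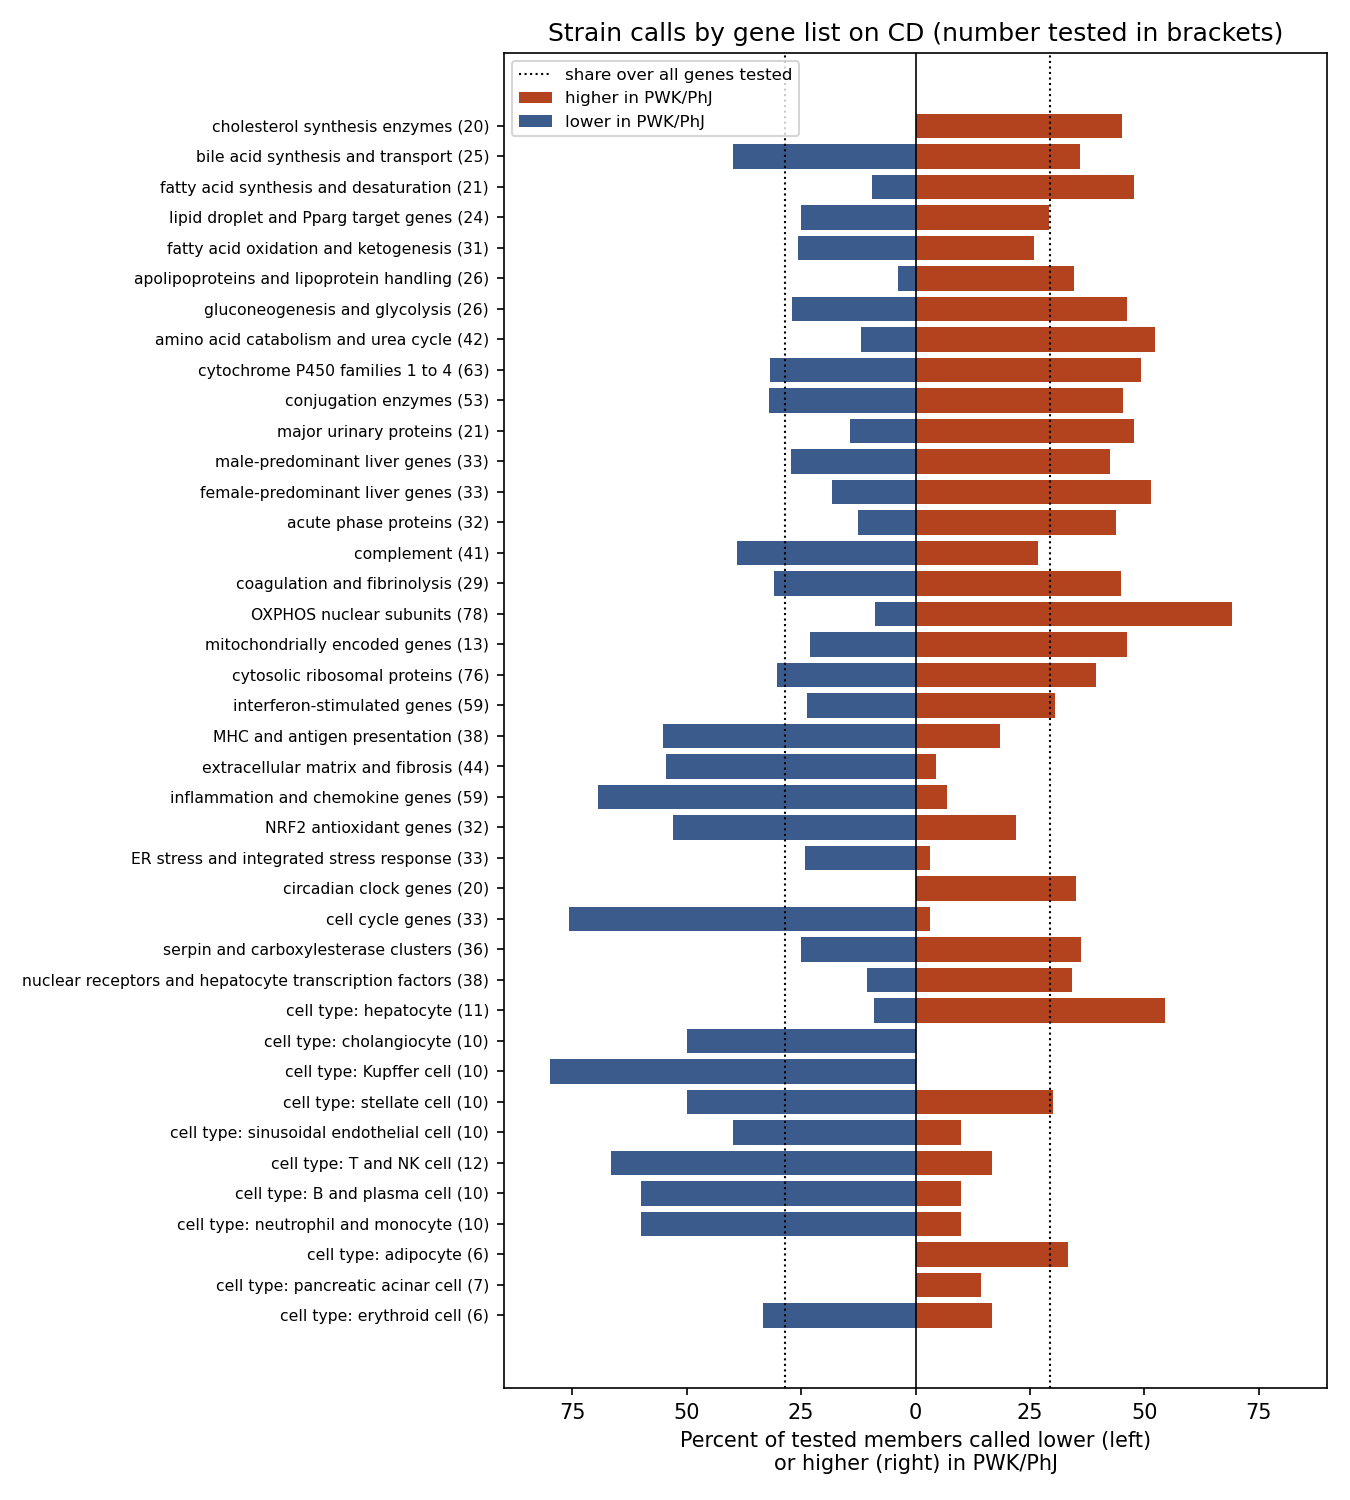
Percent of the tested members of each gene list that were called lower (blue, left) or higher (red, right) in PWK/PhJ on CD, with the number tested in brackets, and the shares over all genes tested (28.6% lower and 29.4% higher) dotted. Long bars to the left belong to the Kupffer cell, cell cycle, and inflammation lists, and the longest to the right is that of the nuclear OXPHOS subunits.

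Glucose genes had 12 higher and 7 lower of 26, and 10 and 8 without C57BL/6J replicate 2. The liver phosphofructokinase Pfkl was 79.3, 82.1, and 97.3 CPM in PWK/PhJ and 25.2, 28.9, and 40.5 CPM in C57BL/6J. The libraries of each strain lay close together with a wide gap between the strains (log2 fold change 1.52 ± 0.0655 SE, limma-voom adjusted p = 7.92e-36). Pfkfb4, which makes the activator fructose 2,6-bisphosphate, was 5.42 to 12.2 CPM against 0.949 to 3.46 CPM. In contrast, Eno1, a glycolytic enolase, was 118 to 161 CPM against 330 to 454 CPM, and Pck1, the gluconeogenic carboxykinase, was 240, 1050, and 1520 CPM against 1140, 1720, and 2740 CPM, with some overlap for Pck1 and none for Eno1.

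Amino acid catabolism and the urea cycle had 22 higher and 5 lower of 42, with a median of 0.30, and only 1 member in each direction reached a 2-fold difference. The higher one was Sds, serine dehydratase, at 93, 120, and 163 CPM in PWK/PhJ and 38.5, 54.5, and 106 CPM in C57BL/6J. The lower one was Bhmt, which remethylates homocysteine with betaine, at 133, 171, and 202 CPM against 167, 514, and 973 CPM. The groups overlapped for both (log2 fold change 1.12 ± 0.226 SE, adjusted p = 1.41e-05 for Sds, and -1.57 ± 0.248 SE, adjusted p = 6.29e-08 for Bhmt).

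Plasma protein genes showed large differences at single members. Of 32 acute phase genes, 14 were higher and 4 lower. Hp, the haemoglobin scavenger haptoglobin, was 2230, 3190, and 4370 CPM in PWK/PhJ and 1100, 1380, and 2240 CPM in C57BL/6J, which met at their edges. Itih3, a hyaluronan-binding protein, was 1770 to 2550 CPM against 683 to 1180 CPM with no overlap. The difference was 1.02 ± 0.169 for Hp and 1.28 ± 0.172 for Itih3 on the log2 scale (SE; limma-voom adjusted p = 2.01e-07 and 5.14e-10). Hamp2, a paralogue of the iron hormone hepcidin, was 228, 287, and 405 CPM against 2.12, 10.3, and 30.4 CPM. Orm1 was 7.32, 9.18, and 11.6 CPM against 186, 363, and 468 CPM and was the largest decrease of this list, while the low-level Orm3 was 4.3 to 6.16 CPM against 0.178 to 1.13 CPM, and reads of these near copies can be exchanged. Mt2, a metallothionein, was 0.313 to 2.82 CPM against 0 to 1.86 CPM.

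Complement had 11 higher and 16 lower of 41 with a median of 0.0094, close to the shares over all genes on the higher side. C1rb was 11.6 to 17 CPM in PWK/PhJ and 0.0412 to 0.11 CPM in C57BL/6J, but C1ra and C1rb together had a ratio of 1.03. Fcna, a ficolin made by liver macrophages, was 3.59, 6.46, and 7.04 CPM against 8.67, 23.4, and 28.2 CPM with no overlap. In coagulation and fibrinolysis, 13 were higher and 9 lower of 29. Factor XI, encoded by F11, was 99.5, 108, and 119 CPM against 36.4, 47.5, and 64.3 CPM. Cpb2, the fibrinolysis inhibitor TAFI, was 47, 50.4, and 55.6 CPM against 258, 276, and 336 CPM. Both were separated in all libraries, by 1.15 ± 0.128 for F11 (SE; adjusted p = 8.29e-13 in limma-voom) and -2.51 ± 0.0816 for Cpb2 (adjusted p = 1.32e-44).

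Subunits of oxidative phosphorylation (OXPHOS) carry electrons to oxygen and make ATP in the inner mitochondrial membrane. Of 78 tested nuclear OXPHOS genes, 54 were higher in PWK/PhJ and 7 lower, with a median of 0.27 on the log2 scale, and 0 reached 2-fold in either direction. With the reads of matching pseudogenes added, 59 were higher and 4 lower, and with upper-quartile scaling 53 and 7. The summed level was 9455, 10250, and 11280 CPM in PWK/PhJ and 7708, 8156, and 9461 CPM in C57BL/6J, so the ranges met at their ends. Of the members below C57BL/6J, Ndufs5, a complex I subunit, was 12.5 to 17 CPM against 25 to 31.2 CPM (log2 fold change -0.96, adjusted p = 9.17e-23 in limma-voom), and it was 0.38 higher with its pseudogenes added (adjusted p = 1.34e-07). On WD, 20 of the 78 were higher and 23 lower, with a median of -0.02.

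Ribosomal proteins have many pseudogenes. Of 76 tested genes for cytosolic ribosomal proteins, 30 were higher and 23 lower, 39 and 16 with pseudogene reads added, and 23 and 27 with upper-quartile scaling, so the balance of directions depended on the choice. Without PWK/PhJ replicate 5 the counts were 24 and 25. Rps26 and Rplp0 were among the lowest, the latter at 129, 148, and 162 CPM in PWK/PhJ and 330, 348, and 413 CPM in C57BL/6J. With pseudogene reads added, the difference of Rplp0 went from -1.30 to -0.53 (adjusted p = 4.38e-14 in limma-voom), and that of Rps26 from -2.65 to 0.03 (adjusted p = 0.667).

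Genes of immune cells and inflammation were lower in PWK/PhJ on CD. Of 59 inflammation and chemokine genes, 4 were higher and 41 lower, with a median of -0.84, and 4 and 38 without C57BL/6J replicate 2. Without PWK/PhJ replicate 5 the counts were 5 and 34 and the median -0.81. Ccl6, a macrophage chemokine, was 0.317, 1.28, and 1.63 CPM in PWK/PhJ and 12.8, 17.3, and 34.3 CPM in C57BL/6J. Tlr12, a sensor of parasite profilin, was 0.253 to 1.95 CPM against 4.12 to 34.9 CPM. In both genes no libraries overlapped. The summed level of the list overlapped, at 626.9 to 711.2 CPM and 651.1 to 820.9 CPM.

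Of 38 genes of the major histocompatibility complex (MHC) and antigen presentation, 7 were higher and 21 lower (median -0.57), and the same counts were found without C57BL/6J replicate 2. The summed level was 3284, 3483, and 3545 CPM in PWK/PhJ and 4861, 5796, and 7602 CPM in C57BL/6J, with no overlap. H2-Eb1, a class II beta chain of antigen-presenting cells, was 0.613, 1.18, and 1.93 CPM against 15.1, 29.4, and 95.6 CPM, and the class I gene H2-Q7 was 3.34 to 5.14 CPM against 26.7 to 129 CPM. H2-Bl was the reverse, at 6.86 to 10.2 CPM against 0.0504 to 3 CPM, but it is annotated as a polymorphic pseudogene and resembles the class I gene H2-D1 (90.39% identity). H2-D1 itself was lower (log2 fold change -1.08, and -1.01 with the reads of H2-Bl added), and with pseudogene reads added the list had 6 higher and 21 lower of 37. MHC genes are the most polymorphic genes of the mouse, and how much of these differences comes from reads that did not map was not tested.

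Interferon-stimulated genes were mixed, with 18 higher and 14 lower of 59, near the shares over all genes. Mx2, which blocks viruses and is known to be defective in classical inbred strains, was 36.9, 81.9, and 160 CPM in PWK/PhJ and 3.36, 5.77, and 6.68 CPM in C57BL/6J, without overlap (log2 fold change 3.96 ± 0.239 SE, limma-voom adjusted p = 1.94e-26). Ifit3 was 1.19 to 3.21 CPM against 6.56 to 17.6 CPM. Ifi27l2a had no read in any PWK/PhJ library and 2.02 to 5.2 CPM in C57BL/6J. Against a floor of 3 reads over the 6 libraries it was at least 342-fold lower.

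Markers of liver cell types moved with these lists. Of 10 Kupffer cell (liver macrophage) markers, 0 were higher and 8 lower in limma-voom, with 9 lower at an unadjusted p below 0.05 and 9 in edgeR and in DESeq2, and 0 higher by any of them. Their summed level was 54.73, 239.2, and 362.3 CPM in PWK/PhJ and 317.1, 406.9, and 621.2 CPM in C57BL/6J, so the strains overlapped in part. The lowest sum belonged to PWK/PhJ replicate 5, and the other 5 PWK/PhJ libraries had 208.5 to 362.3 CPM. This library was also the lowest of its group in the sums of stellate cell markers (262.5 CPM against 381.3 to 461.8 CPM) and of sinusoidal endothelial markers (349.1 CPM against 520.1 to 598.7 CPM). Without it 0 Kupffer cell markers were higher and 7 lower in limma-voom, and their median went from -1.26 to -0.77. Adgre1, which encodes the macrophage marker F4/80, was 0.993, 6.53, and 13.2 CPM against 16.8, 28.4, and 38.4 CPM, without overlap (log2 fold change -2.32 ± 0.281 SE, adjusted p = 1.72e-11), and Cd5l was 10.5 to 79.1 CPM against 73.7 to 159 CPM. Of the T and NK cell, B and plasma cell, and neutrophil and monocyte markers, 8 of 12, 6 of 10, and 6 of 10 were lower and 2, 1, and 1 higher. The sums of these 3 lists overlapped, at 4.267 to 10.61, 24.86 to 42.69, and 5.112 to 9.882 CPM in PWK/PhJ and 4.725 to 15.24, 23.21 to 93.45, and 6.782 to 23.96 CPM in C57BL/6J. Examples are the T cell receptor gene Trac (0.169 to 0.644 CPM against 0.464 to 1.61 CPM) and the neutrophil gene S100a9 (0.146 to 0.424 CPM against 0.844 to 3.29 CPM). In whole liver, fewer cells of a type and less RNA of these genes per cell cannot be told apart.

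Extracellular matrix and fibrosis genes had 2 higher and 24 lower of 44, with a median of -0.63. Without C57BL/6J replicate 2 they had 5 and 21 with a median of -0.36, and without PWK/PhJ replicate 5 they had 3 and 21 with a median of -0.50. Postn, a matrix protein of activated fibroblasts, was 0.834, 1.11, and 1.48 CPM in PWK/PhJ and 12.9, 13.9, and 17.2 CPM in C57BL/6J. The difference did not rest on 1 library (log2 fold change -3.71 ± 0.349 SE, limma-voom adjusted p = 6.09e-16). Lum, the collagen-binding lumican, was 1.39 to 3.13 CPM against 10.3 to 98.1 CPM, and 10.3 to 24.8 CPM without replicate 2. Col5a2, a fibrillar collagen, was higher, with 21.5 to 93.4 CPM against 2.32 to 26.1 CPM, which overlapped through C57BL/6J replicate 2 alone. The summed level of the list overlapped, at 2847, 3644, and 3838 CPM in PWK/PhJ and 3104, 3320, and 4757 CPM in C57BL/6J. Its median was thus higher in PWK/PhJ, unlike the counts, and without replicate 2 the highest C57BL/6J library had 3624 CPM. The 10 stellate cell markers had 3 higher and 5 lower members.

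Cell cycle genes were lower in PWK/PhJ for 25 of 33 and higher for 1, with a median of -1.32. Their summed level was 101.9, 106.9, and 130.7 CPM in PWK/PhJ and 185.2, 232.2, and 593.5 CPM in C57BL/6J. The strains did not overlap, with replicate 2 the highest of C57BL/6J and 409.5 CPM the highest without it, and without it 25 genes were lower and 2 higher with a median of -1.07. Ccnd1, the cyclin of the entry into S phase, was 5.87, 8.98, and 13.7 CPM against 46.9, 109, and 176 CPM. Kif11, a spindle motor, was 0.253 to 0.664 CPM against 1.17 to 8.75 CPM, and Ccnb1, the mitotic cyclin, was 0.0212 to 0.221 CPM against 0.295 to 9.68 CPM. The transcripts of the mitotic genes were scarce in both strains.

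**Figure D5:**
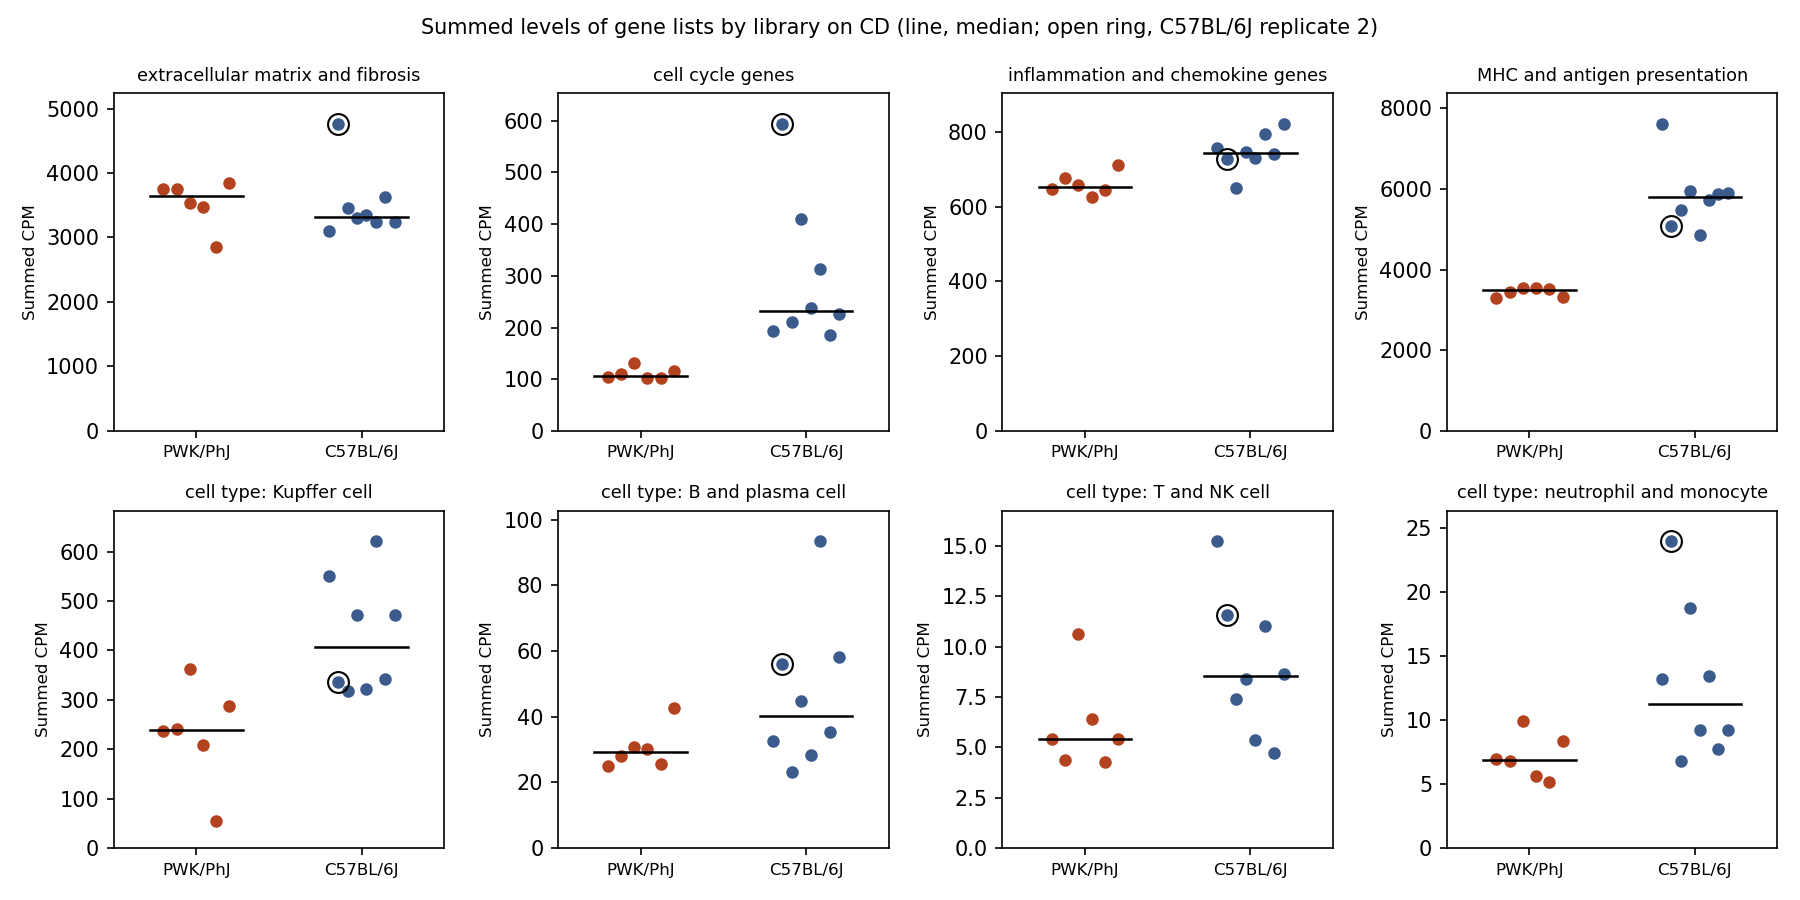
Summed CPM of 8 gene lists in each CD library of PWK/PhJ (red, n = 6) and C57BL/6J (blue, n = 8), with the median as a line and C57BL/6J replicate 2 ringed. The MHC and cell cycle sums do not overlap between the strains, whereas those of the matrix, inflammation, and immune cell lists do.

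Other cell types gave smaller sets. Of 10 cholangiocyte (bile duct cell) markers, 0 were higher and 5 lower in limma-voom (1 and 6 at an unadjusted p below 0.05, 0 and 8 in edgeR and in DESeq2), and 1 and 4 without C57BL/6J replicate 2. Their sum was 65.52, 110, and 141.2 CPM in PWK/PhJ and 44.89, 56.06, and 451.7 CPM in C57BL/6J, the highest being replicate 2. The median of the sum was thus higher in PWK/PhJ, unlike the counts. Epcam was 0.663, 0.84, and 0.986 CPM against 1.31, 2.04, and 22.4 CPM. Of 10 sinusoidal endothelial markers, 1 was higher and 4 lower, and 1 and 1 without PWK/PhJ replicate 5. The higher one was Lyve1 at 26.5, 41.2, and 46.8 CPM against 5.75, 11.2, and 31.5 CPM. Its groups overlapped through C57BL/6J replicate 2. Erythroid markers had 1 higher and 2 lower of 6, among them Alas2, of haem synthesis, at 2.72 to 4.43 CPM against 21.9 to 71.8 CPM. In the adipocyte list, where 2 of 6 were higher, Car3, which is also expressed by hepatocytes, was 1560 to 2450 CPM against 437 to 1680 CPM. In the list of pancreatic acinar genes 1 of 7 was higher, namely Cela1 (9.66 to 19.8 CPM against 4.23 to 7.43 CPM). The sum of this list was 9.661 to 69.76 CPM in PWK/PhJ and 4.546 to 7.784 CPM in C57BL/6J. The 69.76 CPM belonged to PWK/PhJ replicate 6, where most of the sum came from members other than Cela1. In the other PWK/PhJ libraries the sum was at most 18.25 CPM. Whether pancreatic tissue was present in that sample was not tested.

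Genes of endoplasmic reticulum stress and the integrated stress response had 1 higher and 8 lower of 33, with Phgdh, of serine synthesis, at 0.0402 to 0.221 CPM against 0.412 to 2.7 CPM and Vldlr, a lipoprotein receptor, at 0.487 to 0.929 CPM against 2.25 to 4.99 CPM. Nuclear receptors and hepatocyte transcription factors had 13 higher and 4 lower of 38. Circadian clock genes had 7 higher and 0 lower of 20 in limma-voom (0 lower at an unadjusted p below 0.05), but 3 and 1 in edgeR, 3 and 2 in DESeq2, and 3 and 0 without PWK/PhJ replicate 5. The serpin and carboxylesterase clusters had 13 higher and 9 lower of 36.

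The same comparison in the mice on WD gave 10849 DEGs (56.8%), of which 5519 (28.9%) were higher and 5330 (27.9%) lower in PWK/PhJ. Called in the same direction on both diets were 8062 genes, which is 72.8% of the CD calls and 74.3% of the WD calls, and 165 were called in opposite directions. Of the 4734 CD calls of at least 2-fold, 3952 (83.5%) were called the same way on WD. The CD and WD comparisons used different mice. The strain difference itself differed between the diets for 2101 genes (11.0%), and 1577 of these were DEGs on CD. Miox had 36.4 to 51.9 CPM in PWK/PhJ and 0 to 0.0581 CPM in C57BL/6J on WD, and Serpina1c differed by -8.12 on the log2 scale there, so these differences were of like size on both diets (the change between diets was 0.26 with an adjusted p of 0.832 and 0.20 with an adjusted p of 0.75 in limma-voom).

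Several of the largest differences on CD were much smaller on WD. Genes chosen for a large difference on CD can lie nearer to 0 in other mice through that choice alone, and how much it contributed was not tested. Sult3a1 had a median of 153 CPM on CD in PWK/PhJ but 0.519 CPM on WD, with a range of 0.116 to 1.49 CPM there, and C57BL/6J had 0 to 0.31 CPM on WD. The strain difference of 11.98 on CD was thus 2.41 on WD, a change of -9.57 (limma-voom interaction, adjusted p = 2.11e-08). Sult3a2, Cyp3a41a, and Cyp3a44 had changes of -7.98, -8.08, and -4.80. By contrast Sult2a1, with 6.03 to 73.5 CPM on WD in PWK/PhJ, differed by 10.34 on WD, and its change between diets was -0.35 (adjusted p = 0.928 in limma-voom). The list of 33 female-predominant genes had 17 higher and 6 lower on CD and 11 and 8 on WD, with medians of 1.65 and 0.08.

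Some decreases were also smaller on WD, and these genes too were chosen by their size on CD. Postn differed by -3.71 on CD and -0.76 on WD, Ccnd1 by -3.43 and -1.18, Pparg by -4.71 and -2.28, and Orm1 by -5.19 and -1.99. Each of these changes passed the test of the interaction (adjusted p = 3.72e-08, 4.87e-05, 0.00924, and 2.5e-08 in limma-voom). In counts, extracellular matrix genes went from 2 higher and 24 lower on CD to 10 and 6 on WD, and cell cycle genes from 1 and 25 to 3 and 13. MHC genes (7 and 21 on CD, 7 and 22 on WD) and Kupffer cell markers (0 and 8, 0 and 7) stayed close to their CD counts. Whether the lists as such differed between the diets was not tested.

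The other strains on CD placed each difference. For the 1800 protein-coding genes with at least a 2-fold difference and no overlap between PWK/PhJ and C57BL/6J, the mean of CAST/EiJ, another wild-derived strain, was nearer to PWK/PhJ than to C57BL/6J for 1004 (55.8%). The values were 742 (41.2%) for WSB/EiJ, 653 (36.3%) for 129S1/SvImJ, 571 (31.7%) for A/J, and 547 (30.4%) for DBA/2J. All 5 were nearer to C57BL/6J for 419 genes (23.3%) and all 5 nearer to PWK/PhJ for 149 (8.28%). Single genes varied in this. CAST/EiJ had a mean of 2320 CPM of Sult3a1, 138 CPM of Akr1c18, and 1510 CPM of Cyp7b1, but 0.0881 CPM of Miox and 0.0325 CPM of Sult2a1. Among the decreases, CAST/EiJ had 489 CPM of Serpina1c and 75.3 CPM of Cyp39a1 but 0.834 CPM of Gstm3, 0.29 CPM of Pparg, and 0.242 CPM of Cd300ld. The genes were chosen by the difference between PWK/PhJ and C57BL/6J, and these means are given as a description.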

How the data were processed

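The authors sequenced the liver RNA of 93 male mice, of which the 14 CD libraries of PWK/PhJ and C57BL/6J are compared here. Per the labels and the study's methods, libraries were made with the SMARTER kit and read on the BGISEQ-500, and STAR 2.7.1a mapped the reads to the C57BL/6J genome (GRCm38, mm10). The deposited values are unnormalized counts of reads per gene and mouse, with 4 lines of uncounted reads, which were kept out of the gene table. The strand setting and annotation release of the counting are not given in the sources used here, so overlapping genes and near-identical copies are uncertain.

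The counts were fitted with limma 3.58.1 after filtering and TMM scaling in edgeR 4.0.16 (R 4.3.3). The filterByExpr function, set to a minimum count of 10, kept 19110 of 53465 genes, and limma-voom was fitted once to the 14 groups of strain and diet with all 93 libraries. All gene-level p-values come from limma-voom unless another tool is named, with Benjamini–Hochberg adjustment over the genes tested in each fit. These were 19110 in the main fit, 18018 with pseudogene reads added, 16343 with the 2 strains alone on CD, and 19053 without C57BL/6J replicate 2. Genes were called at an adjusted p under 0.05. Replicates are separate mice, and their numbers follow the order of the deposited samples and pair nothing. Symbols, coordinates, and sequences came from GENCODE vM21, and pseudogenes were paired with genes by aligning transcripts. Shares of reads were compared with exact permutation tests. The fit was tested on simulated data, where the share of false calls was above the nominal level. Depth was 47003917 to 49648938 reads on genes per library, and intervals cover counting error only.

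The lists and comparisons were chosen with earlier results of these data known. Named genes were the 12 largest increases and decreases without overlap and with at least 10 CPM in the higher strain, up to 4 DEGs of each list by fold change, the 8 most abundant 2-fold DEGs, and Nnt, Ddx3y, and Xist. Rps26-ps1, Scp2-ps2, Scp2, and mt-Co1 lie outside this rule and were named after their values were seen. Some genes that the rule would name are not reported here. Alternatives were edgeR's quasi-likelihood test, DESeq2 1.42.0, other filters and scaling, the 2 strains alone, cohort, RNA integrity, quality weights, and left-out libraries. Adding pseudogene reads, testing protein-coding genes alone, the list counts without C57BL/6J replicate 2 or PWK/PhJ replicate 5, and leaving out PWK/PhJ replicate 3 were chosen after seeing the data.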

Additional observations from a re-analysis of the deposited data

Results flagged for a closer look

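In 37 of 208 checks of a named gene in a CD group, the highest or lowest library lay far from the others by Dixon's criterion. Chance meets this criterion in about 1 in 20 groups of normally distributed values. The values checked were untransformed CPM, some of them near 0, for which that rate need not hold. C57BL/6J replicate 2 accounted for 20 of these. It was high for Sult2a1 (1.85 CPM), Cyp3a41a (0.101), Miox (0.286), Akr1c18 (5.61), Cyp3a44 (4.79), Cyp2c40 (21.9), Itih3 (1180), Abcc4 (17.1), Lpl (440), Pfkfb4 (3.46), Pfkl (40.5), Orm3 (1.13), Rps26 (194), Lum (98.1), Col5a2 (26.1), Kif11 (8.75), and Epcam (22.4). It was low for Mup20 (209 CPM), Fcna (8.67), and Scp2 (1640). The other C57BL/6J libraries far from their group were replicate 3 at Mup17 (2.08 CPM), replicate 4 at Cidec (68.8) and Mt2 (1.86), and replicate 6 at Marco (62.5).

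In PWK/PhJ, replicate 3 was high for Sult3a1 (588 CPM), Cyp3a41a (204), Sult3a2 (73.1), Mvd (123), Acat2 (220), Thrsp (671), and Adgrf1 (0.0403) and low for Mup17 (19.2). Replicate 5 was high for Serpina1c (3.36 CPM) and Xist (3.34) and low for Fcna (3.59), replicate 2 was low for Vldlr (0.487), and replicate 6 was high for Col5a2 (93.4). Leaving out PWK/PhJ replicate 3 gave log2 fold changes of 11.62 for Sult3a1, 11.15 for Cyp3a41a, 8.92 for Sult3a2, 0.87 for Mvd, 1.02 for Acat2, and 1.28 for Thrsp, and all of these stayed DEGs.

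The strain difference differed between CD and WD, by the interaction in limma-voom, for 28 of 104 named genes, and for 23 of them it was nearer to 0 on WD. Most named genes were chosen for large differences on CD, so values nearer to 0 in other mice are partly a property of the choice. The change of the log2 difference was more negative on WD for Sult3a1 (-9.57), Cyp3a41a (-8.08), Sult3a2 (-7.98), Cyp3a44 (-4.8), Mup17 (-4.41), A4gnt (-3.97), Pck1 (-1.48), Car3 (-1.34), H2-Bl (-1.15), Sds (-1), Lyve1 (-0.9), Cpb2 (-0.36), Rps26 (-0.32), Ndufs5 (-0.31), and Rplp0 (-0.22). It was more positive for Adgrf1 (4.75), Orm1 (3.19), Phgdh (3.19), Postn (2.95), Cyp39a1 (2.93), Lum (2.62), Pparg (2.43), Ccnd1 (2.25), Epcam (2.11), Lpl (1.8), Camk1d (1.64), Kif11 (1.2), and mt-Nd2 (0.47). The adjusted p ranged from 2.11e-08 for Sult3a1 to 0.0469 for Adgrf1.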

How the results depend on the processing

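The number of DEGs between the strains on CD was 7105 with at least 10 reads in every library, which tests fewer genes, and 8514 to 13386 under the other alternatives to the filter, test, scaling, and libraries. It was 10566 to 10967 when a CD library was left out (C57BL/6J replicate 2 or 5 or PWK/PhJ replicate 3 or 5). On WD it was 7018 with at least 10 reads in every library. The number of genes whose strain difference differed between diets was 952 with the 2 strains alone, 795 within cohort 1, and 1307 within cohort 2, all of which use fewer mice. With upper-quartile scaling 1156 of these were more positive and 804 more negative on WD, against 1003 and 1098, and the cause was not tested. Reads that mapped to several places differed by 0.8236 percentage points as a share of mapped reads, and this passed the exact permutation test (adjusted p = 0.04). With pseudogene reads added, Ndufs5 (0.38) and mt-Co1 (0.51) were called in the other direction, and Rps26 (0.03, adjusted p = 0.667) was no longer called. Over 104 named genes and 17 alternatives, 1691 of the values kept direction and side of the threshold, 24 lost the call, and 3 changed sign. Those lost in a fit of the 2 strains alone include Slco1a1 (adjusted p = 0.123, and 0.0907 with cohort as a term). Within cohort 1 the call was lost for 5 genes (Cidec, Mt2, Car3, Cela1, and Scp2). Within cohort 2 it was lost for 8 (Pck1, Slco1a1, Thrsp, Acly, Apoa4, Mt2, Epcam, and the clock gene Dbp). Both cohort comparisons use fewer mice. The call of Dbp was also lost in edgeR (adjusted p = 0.798) and in DESeq2 (adjusted p = 0.811). In limma-voom it was lost with the 2 strains alone (adjusted p = 0.27, and 0.17 with cohort as a term) and with quality weights (0.227). Leaving out C57BL/6J replicate 2 (0.232) or PWK/PhJ replicate 5 (0.054) had the same effect. Mup3 was not called in limma-voom with no filter beyond 1 read (adjusted p = 0.0913). No paired analysis was possible because the labels give no replicate numbers shared between the strains. Genes with few reads in both strains are limited by depth.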
